A study of Mus musculus with 2 samples.

Results

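The genes described here encode carriers of sodium, chloride, bicarbonate, phosphate, sulfate and calcium ions in the solute carrier (Slc) superfamily, with their closest relatives. They were taken by symbol from a table of exon read counts, as every symbol that begins with Slc4a, Slc8a, Slc9a, Slc12a, Slc13a, Slc17a, Slc20a, Slc24a, Slc26a or Slc34a and a number, which gave 70 of 30744 symbols. The open pattern also takes genes that are not carriers: Slc4a1ap, Slc9a3r1 and Slc9a3r2, which encode binding proteins, and Slc13a2os, a transcript antisense to Slc13a2. Counts came from 2 total RNA libraries of mouse kidney. The tumour library was made from a kidney tumour of an animal with the genotype Tet-OSKM/mPer2-luc that had received doxycycline. The other was made from the normal kidney of an animal labelled WT that had received none. For both the strain background is given as C57BL/6 x DBA/2 F1, and both carry a protocol for chimeric animals grown from embryonic stem cells with Rosa26-M2rtTA, TetO-OSKM and mPer2-luc. Whether the normal kidney came from a chimera, and the sex and age of the animals, are not given in the sources used here. In such animals doxycycline switches on the reprogramming factors Oct4, Sox2, Klf4 and c-Myc, and a chimera holds host cells that lack the transgenes. With 1 library per group there is no replicate, so each difference compares these 2 libraries and has no p-value.

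Carriers of these families move small ions across membranes, many of them along the sodium gradient or in exchange for another ion. In the kidney they are divided among nephron segments. The proximal tubule takes back phosphate, sulfate, bicarbonate and most sodium, the thick ascending limb and the distal convoluted tubule take back sodium with chloride, and intercalated cells of the collecting duct exchange chloride for bicarbonate. Most families also hold members that nearly every cell uses to regulate its volume, its pH or its own phosphate supply, and a few that serve neurons, bone, gut or the inner ear.

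Promoter windows are shown for 3 carriers: Slc34a1, which had the most reads of all 70 genes in normal kidney, Slc9a3, a proton exchanger whose transcript is known to cycle with the clock in rodent kidney, and Slc20a1, which had the most reads in the tumour. Each window runs from 250 bases before to 50 bases after the RefSeq start site on GRCm38.p6, plus strand, and capitals mark the motif letters found by search. Only windows that hold a searched motif were kept for display. In Slc34a1 (chr13:55399398-55399697) they are an HNF1-type motif, ATTAAC, at -89 and again as GTTAAT at -61, and an HNF4-type motif, GACTTTG, at -6. In Slc9a3 (chr13:74121163-74121462) they are the E-box CACGTG at -87, and in Slc20a1 (chr2:129198523-129198822) E-boxes at -175 and -22. The E-box is the element to which the clock proteins CLOCK and BMAL1 are known to bind, and HNF1 and HNF4 factors are known to act in the proximal tubule.
Slc34a1: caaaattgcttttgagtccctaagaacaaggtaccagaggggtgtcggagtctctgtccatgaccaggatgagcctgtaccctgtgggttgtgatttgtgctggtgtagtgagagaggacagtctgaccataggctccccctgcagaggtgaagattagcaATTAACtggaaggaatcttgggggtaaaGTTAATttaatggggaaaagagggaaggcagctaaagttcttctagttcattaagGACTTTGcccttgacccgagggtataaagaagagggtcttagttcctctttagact
Slc9a3: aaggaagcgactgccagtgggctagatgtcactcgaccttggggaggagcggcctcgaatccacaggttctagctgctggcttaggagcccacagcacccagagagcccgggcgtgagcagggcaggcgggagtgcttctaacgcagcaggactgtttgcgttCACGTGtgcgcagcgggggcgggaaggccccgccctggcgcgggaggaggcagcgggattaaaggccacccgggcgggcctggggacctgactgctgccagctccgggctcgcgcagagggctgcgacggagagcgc
Slc20a1: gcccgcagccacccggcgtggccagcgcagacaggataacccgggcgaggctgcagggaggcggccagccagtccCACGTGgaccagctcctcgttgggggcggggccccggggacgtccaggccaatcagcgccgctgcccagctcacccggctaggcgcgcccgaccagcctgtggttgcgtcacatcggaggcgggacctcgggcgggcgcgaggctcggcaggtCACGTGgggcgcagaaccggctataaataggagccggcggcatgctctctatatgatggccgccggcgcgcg

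Windows were found for 54 of the 70 genes, 70 windows in all. CACGTG, which reads the same on both strands, was in 10 of them (14.3%), against 7.15% of the 32851 windows of all genes. GTTAAT or its complement was in 3 (4.29%), against 7.10% of all, and CAAAGTC or its complement in 1 (1.43%), against 4.44%. An E-box stood in 5 of the 29 windows of genes lower in the tumour, in 1 of the 14 windows of genes that were higher and in 2 of the 11 windows of genes that were neither. Separate windows of Slc12a7, with the E-box at -1 and at -38, are among the 5. The median share of G and C letters was 60.3%, 53.7% and 65.0% in these groups of windows, against 52.7% in all windows. Its part in the E-box share was not tested. These are matches of letters and do not show that a factor binds there.

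Among the 70 genes more were lower than higher in the tumour library. Reads of the 70 genes came to 28590 in the tumour, 0.137% of its counted reads, against 412966 in the normal library, 1.41%. After scaling the libraries with TMM, which allows for differences in RNA composition, the sum of CPM (reads scaled to a library of fixed size) was 15.2-fold lower in the tumour, and still 10.3-fold lower without Slc34a1. Genes with 20 or more reads, both libraries added, count as measured, and a gene was called when the ratio of TMM-scaled counts was at least 2-fold and its 95% counting interval excluded 1. Of 57 measured members 32 were lower, against 28.1% of all 16326 measured genes, and 12 were higher, against 31.0% of all. With plain CPM, which shifts all measured genes up by 0.57 in the median log2 ratio, 24 members were lower and 16 higher, so that 40.0% of member calls were higher, against 27.3% with TMM. Over all measured genes plain CPM gave 20.2% lower and 42.1% higher, and 67.6% of calls were higher, against 52.4% with TMM. The median log2 ratio, tumour over normal, was -1.35 for the members and 0.07 for all measured genes. Of the 57 measured members 18 were at least 8-fold lower, where the share of all measured genes was 9.19%. On the higher side 6 were at least 8-fold higher, where it was 12.1%, so that side did not exceed the share of all genes. The 6 include Slc17a6 and Slc17a7, whose ratios rest on a floor set for 0 normal reads. The plot of ratio distributions shows the carriers to the left of all genes over most of the range. The other 13 members had under 20 reads. In bulk tissue, fewer cells of a type and less RNA per cell cannot be told apart.

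**Figure D1:**
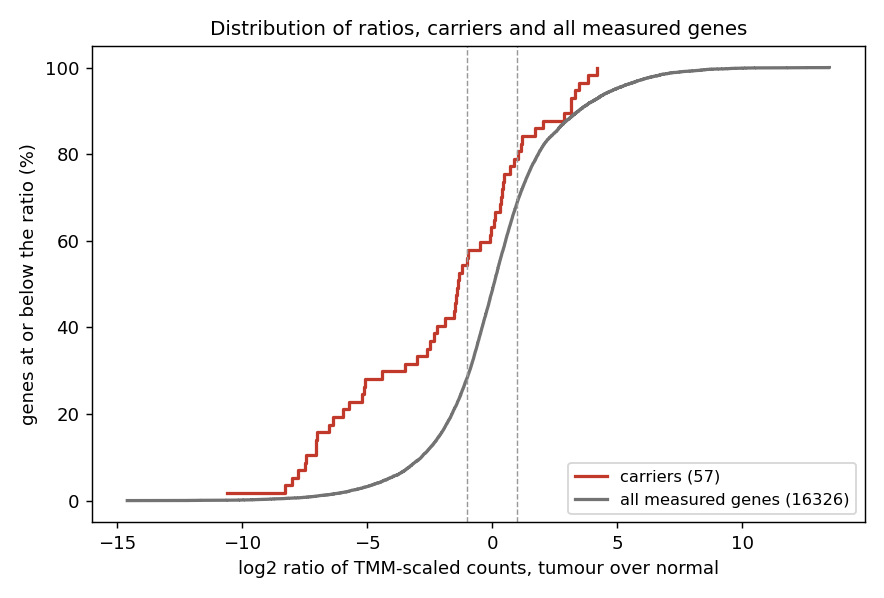
The curves give the percentage of genes at or below each log2 ratio, tumour over normal, for the 57 measured carriers (red) and all 16326 measured genes (grey), with dashed lines at 2-fold. The medians were -1.35 for the carriers and 0.07 for all genes, and the carriers' curve lies above that of all genes over most of the lower range.

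Per length, the leading transcripts of the 70 genes in the tumour, in RPKM, were Slc9a3r1 (42.1), Slc20a1 (30.6), Slc20a2 (13.9), Slc4a1ap (13.5) and Slc12a2 (12.6). Slc9a3r1 and Slc4a1ap encode binding proteins, so that Slc20a1 led among the carriers themselves. In the normal kidney they were Slc34a1 (1093), Slc17a1 (283), Slc4a4 (239), Slc12a1 (228) and Slc13a3 (168). No gene is on both lists.

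**Figure D2:**
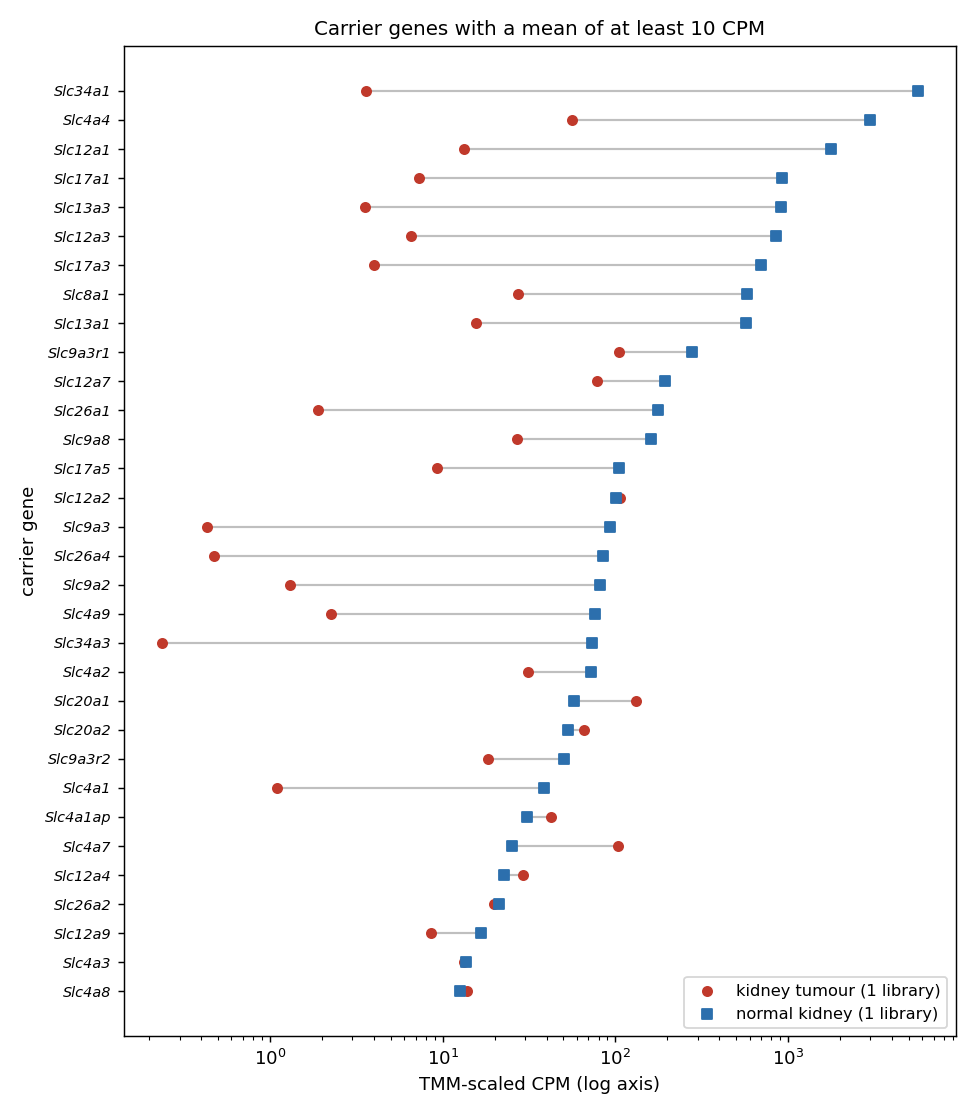
Points give TMM-scaled CPM on a log axis in the tumour library (red circles) and the normal library (blue squares) for 32 genes that averaged 10 CPM or more, ordered by the normal level. The tumour points lie left of the normal points at the top of the plot, with Slc34a1 farthest at 3.59 CPM in the tumour and 5637 CPM in the normal library. Among the genes whose tumour point lies to the right, Slc20a1 and Slc4a7 were called higher. The others, such as Slc20a2, were short of 2-fold.

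Phosphate cotransporters showed the largest single difference of the set. Slc34a1 (chromosome 13, 55399648 to 55414695), the NaPi-IIa protein of the proximal tubule brush border that carries most of the phosphate taken back from urine, had 91 reads in the tumour library, against 135468 reads in the normal library. It was 1572-fold lower (1280.0 to 1952), and alone it made up 32.8% of all carrier reads in normal kidney. Slc34a3 (chromosome 2, 25228897 to 25234234), which encodes NaPi-IIc of the same membrane, had 6 reads in the tumour and 1773 reads in the normal library and was 312-fold lower (143 to 851). Slc34a2, the NaPi-IIb form of small intestine and lung, was not lower. It had 203 reads in the tumour and 117 reads in the normal library, with a ratio of 1.64 (1.30 to 2.08), short of 2-fold with this scaling and past it with plain CPM (log2 ratio 1.28) and header totals (1.08).

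Slc20a1 and Slc20a2 encode PiT-1 and PiT-2, the phosphate cotransporters of most cell types. Slc20a1 (chromosome 2, 129198773 to 129211612) had 3343 reads in the tumour and 1383 reads in the normal library and was 2.29-fold higher (2.15 to 2.44). Slc20a2 had 1678 reads in the tumour and 1274 reads in the normal library, and a ratio of 1.25 (1.16 to 1.34). The make-up of sodium-phosphate transcripts differed per length: Slc20a1 took 65.2% of the summed RPKM of Slc34 and Slc20 genes in the tumour and Slc34a1 1.91%, whereas in normal kidney Slc20a1 took 0.917% and Slc34a1 96.4%. The family sum itself was 46.9 RPKM in the tumour and 1134 RPKM in the normal library.

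Slc17a1 to Slc17a4 form a cluster on chromosome 13 (23807027 to 23915007), with gaps between neighbours of 15.9, 9.56 and 2.16 kb. They were first described as phosphate carriers, and Slc17a1 and Slc17a3 are now known for urate and organic anions in the proximal tubule. All 3 measured genes of the cluster were lower, against 28.1% of all measured genes. Slc17a1 had 185 reads in the tumour and 22266 reads in the normal library (127-fold lower (110.0 to 148)). Slc17a3 had 102 reads in the tumour and 16884 reads in the normal library (175-fold lower (144 to 214)). Slc17a4, better known from the intestine, had 17 reads in the tumour and 91 reads in the normal library (5.65-fold lower (3.34 to 10.1)), and Slc17a2 had 0 reads in the tumour and 3 reads in the normal library. The lysosomal sialic acid carrier Slc17a5, which lies elsewhere on chromosome 9, had 237 reads in the tumour and 2513 reads in the normal library and was 11.2-fold lower (9.80 to 12.8).

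In the cation-chloride family the salt-absorbing pair of the nephron was lower by far more than the other members described. Slc12a1 (chromosome 2, 125152600 to 125230001), the NKCC2 cotransporter of the thick ascending limb that loop diuretics block, had 337 reads in the tumour library, against 42505 reads in the normal library, and was 133-fold lower (119.6 to 149). Slc12a3 (chromosome 8, 94329208 to 94366221), the thiazide-sensitive NCC of the distal convoluted tubule, had 167 reads in the tumour and 20519 reads in the normal library and was 129.7-fold lower (111 to 152). Their log2 ratios, -7.06 and -7.02, were close to each other although the genes belong to different segments. Slc12a2, the NKCC1 cotransporter used by most cells to take up chloride, had 2705 reads in the tumour and 2417 reads in the normal library, with a ratio of 1.06 (1.003 to 1.12). Per length, Slc12a1 was at 2.20 RPKM and Slc12a2 at 12.6 RPKM in the tumour, against 228 and 9.21 RPKM in normal kidney.

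Of the potassium-chloride cotransporters, which let cells lose salt and shrink, Slc12a7 was lower and Slc12a4 and Slc12a5 were neither. Slc12a4 (KCC1) had 746 reads in the tumour and 546 reads in the normal library, with a ratio of 1.29 (1.16 to 1.45). Slc12a7 (KCC4) had 1979 reads in the tumour and 4674 reads in the normal library and was 2.49-fold lower (2.37 to 2.63), though with plain CPM its log2 ratio of -0.75 was short of 2-fold. Slc12a5 (KCC2), known from neurons, had 71 reads in the tumour and 37 reads in the normal library, with a ratio of 1.82 (1.21 to 2.78), and passed 2-fold with plain CPM (1.43) and header totals (1.23). Of the less studied relatives, Slc12a8 had 95 reads in the tumour and 8 reads in the normal library and was 11.2-fold higher (5.48 to 26.8), and Slc12a9 had 218 reads in the tumour and 402 reads in the normal library, with a ratio of 0.514 (0.434 to 0.607).

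**Figure D3:**
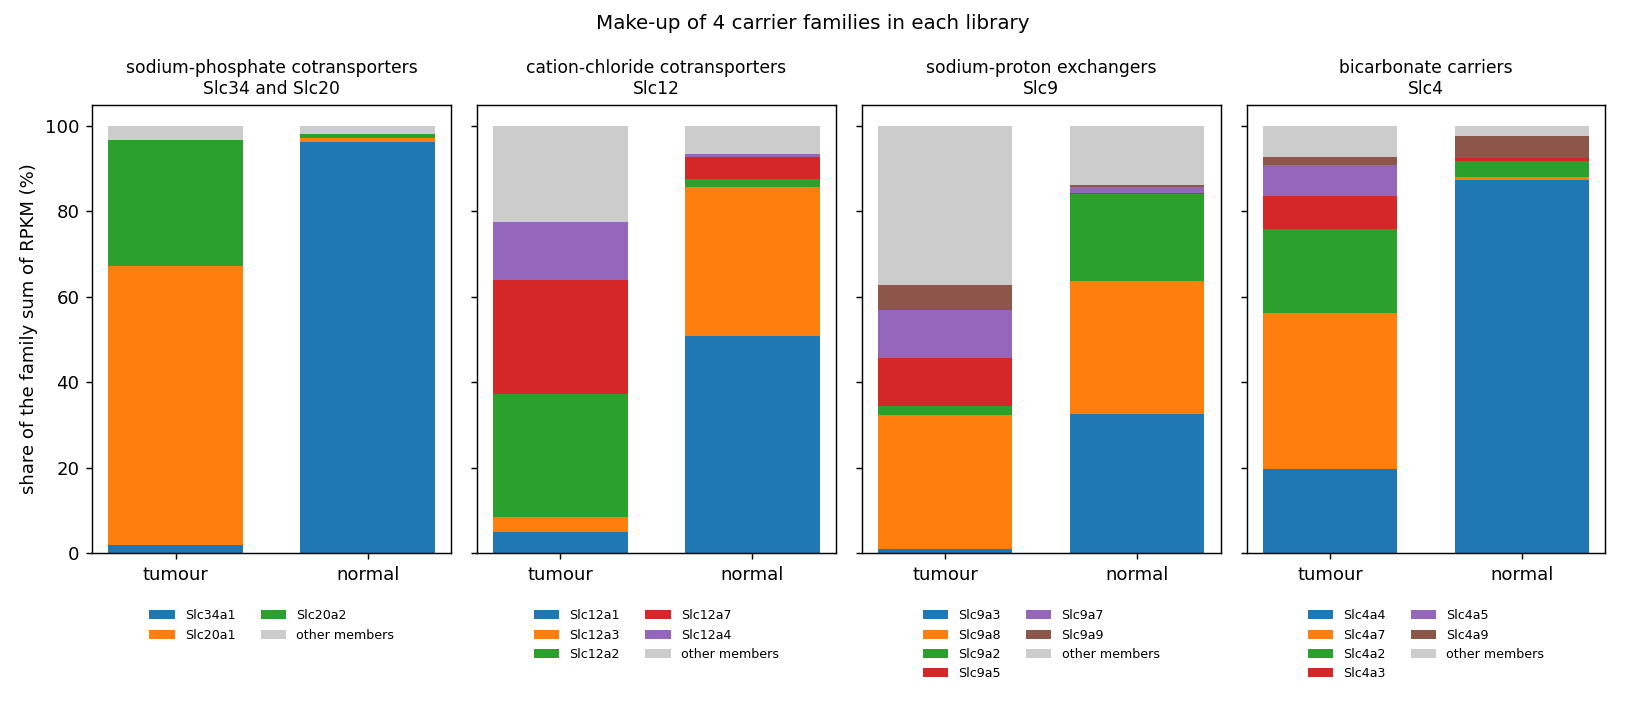
Stacked bars give each gene's share of the summed RPKM of its family in the tumour (left bar) and the normal library (right bar), and all genes without a colour of their own are pooled in grey. Slc34a1, Slc12a1 with Slc12a3, and Slc4a4 fill most of the normal bars (96.4%, 50.9% with 34.7%, and 87.3%), and no single gene of the tumour bars passes 65.2%.

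Among sodium-proton exchangers of the plasma membrane, Slc9a3, Slc9a2 and Slc9a4 were lower. Slc9a3 (chromosome 13, 74121515 to 74166064), the NHE3 exchanger of the proximal brush border whose proton secretion drives bicarbonate recovery, had 11 reads in the tumour library, against 2241 reads in the normal library (215-fold lower (120.0 to 431)). Slc9a2 had 33 reads in the tumour and 1968 reads in the normal library (62.96-fold lower (44.7 to 91.7)), and its neighbour Slc9a4, 51.0 kb away on chromosome 1 and known from stomach and the thick ascending limb, had 18 reads in the tumour and 78 reads in the normal library (4.57-fold lower (2.71 to 8.12)). Slc9a8, which is made in many tissues, had 683 reads in the tumour and 3883 reads in the normal library (6.002-fold lower (5.53 to 6.52)). Per length, Slc9a3 stood at 0.134 RPKM in the tumour, against 22.4 RPKM in normal kidney.

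Of the exchangers of endosomes and the Golgi, Slc9a9 was higher and Slc9a7 was neither. Slc9a7 had 132 reads in the tumour and 91 reads in the normal library, with a ratio of 1.37 (1.04 to 1.81), and Slc9a9 had 98 reads in the tumour and 45 reads in the normal library (2.06-fold higher (1.44 to 3.005)). Slc9a5, an exchanger known mainly from brain, had 286 reads in the tumour and 37 reads in the normal library (7.32-fold higher (5.19 to 10.6)). The scaffold proteins NHERF1 and NHERF2 tether NHE3 and NaPi-IIa in the brush border through PDZ domains. Slc9a3r1 (NHERF1) had 2675 reads in the tumour and 6642 reads in the normal library (2.62-fold lower (2.51 to 2.74)), and Slc9a3r2 (NHERF2) had 464 reads in the tumour and 1217 reads in the normal library (2.77-fold lower (2.49 to 3.09)). With plain CPM both were short of 2-fold, at log2 ratios of -0.82 and -0.90. The scaffolds were lower by far less than Slc9a3 and Slc34a1, and Slc9a3r1 had the highest RPKM of all members in the tumour.

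In the bicarbonate family Slc4a4, Slc4a9, Slc4a1 and Slc4a2 were lower, Slc4a5, Slc4a7 and Slc4a11 were higher, and Slc4a3, Slc4a8 and Slc4a1ap were neither. Slc4a4 (chromosome 5, 88887260 to 89239656), the basolateral NBCe1 cotransporter through which bicarbonate leaves proximal tubule cells, had 1424 reads in the tumour library, against 71287 reads in the normal library, and was 52.9-fold lower (50.2 to 55.7). Slc4a9, the AE4 protein of beta-intercalated cells, had 57 reads in the tumour and 1834 reads in the normal library (33.97-fold lower (26.1 to 45.03)). Slc4a1, the AE1 exchanger of alpha-intercalated cells and of red cells, had 28 reads in the tumour and 931 reads in the normal library (35.1-fold lower (24.1 to 53.1)). Of 8 red cell marker genes found, 5 were measured, with 3 lower and 1 higher. Over all measured genes 28.1% were lower and 31.0% higher. Rhag and Hemgn were at 0 reads in the normal library, and the part of red cells in the Slc4a1 value was not tested.

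Slc4a7 (chromosome 14, 14703025 to 14799943), the NBCn1 cotransporter that loads cells with bicarbonate, was higher in the tumour. It had 2624 reads in the tumour and 605 reads in the normal library and was 4.11-fold higher (3.76 to 4.50). Per length it stood above Slc4a4 in the tumour, at 10.7 and 5.83 RPKM, and far below it in normal kidney, at 2.03 and 239 RPKM. Slc4a5 (NBCe2), known from choroid plexus, had 362 reads in the tumour and 38 reads in the normal library (9.02-fold higher (6.45 to 12.96)), and Slc4a11, known from the cornea, had 106 reads in the tumour and 45 reads in the normal library (2.23-fold higher (1.56 to 3.24)). Slc4a2, the AE2 exchanger of most epithelia, had 798 reads in the tumour and 1731 reads in the normal library (2.29-fold lower (2.10 to 2.49)), and was short of 2-fold with plain CPM at a log2 ratio of -0.63. Slc4a3 had 337 reads in the tumour and 327 reads in the normal library and Slc4a8 had 351 reads in the tumour and 302 reads in the normal library, with ratios of 0.976 (0.836 to 1.14) and 1.10 (0.941 to 1.29). Slc4a1ap, which encodes the AE1-binding protein kanadaptin, had 1082 reads in the tumour and 743 reads in the normal library, with a ratio of 1.38 (1.26 to 1.52). Slc4a10 had 4 reads in the tumour and 1 read in the normal library.

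Among the Slc26 anion exchangers 5 of 7 measured genes were lower, against 28.1% of all measured genes. Slc26a1, a sulfate exchanger of the basolateral membrane in the proximal tubule whose exons overlap those of Idua on the other strand, had 48 reads in the tumour and 4222 reads in the normal library (92.9-fold lower (69.9 to 126)). Slc26a4, the chloride-bicarbonate exchanger pendrin of beta-intercalated cells, had 12 reads in the tumour and 2035 reads in the normal library (179-fold lower (102 to 347)). The smaller differences were those of Slc26a7, Slc26a11 and Slc26a6, with log2 ratios of -2.99, -1.43 and -1.35. Slc26a11 and Slc26a6 were short of 2-fold with plain CPM (-0.86 and -0.79). Slc26a2, a sulfate carrier best known from cartilage, had 505 reads in the tumour and 511 reads in the normal library, with a ratio of 0.936 (0.826 to 1.06), and Slc26a10 had 73 reads in the tumour and 21 reads in the normal library (3.29-fold higher (2.004 to 5.63)). Slc26a3, the chloride-bicarbonate exchanger of the colon, lies 45.9 kb from Slc26a4 on chromosome 12 and had 0 reads in either library. Slc26a5, the prestin of cochlear outer hair cells, had 15 reads in the tumour and 0 reads in normal kidney, and Slc26a9 had 7 reads in the tumour and 0 reads in normal kidney, both under the minimum of reads.

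Sodium-coupled carriers of sulfate and of citric acid cycle intermediates were lower with 1 exception. Slc13a3 (chromosome 2, 165405295 to 165473197), the basolateral dicarboxylate carrier NaDC3 of the proximal tubule, had 90 reads in the tumour and 21837 reads in the normal library (256-fold lower (208 to 319)). Slc13a1, the NaS1 sulfate cotransporter of the brush border, had 397 reads in the tumour and 13647 reads in the normal library (36.3-fold lower (32.8 to 40.2)), a smaller difference than that of Slc13a3 or of the brush border citrate carrier Slc13a2, with 6 reads in the tumour and 464 reads in the normal library (81.6-fold lower (37.2 to 224)). Slc13a4, a second sulfate cotransporter, had 49 reads in the tumour and 172 reads in the normal library (3.71-fold lower (2.68 to 5.20)). The exception was the citrate carrier Slc13a5, known from liver, brain and bone, with 31 reads in the tumour and 22 reads in the normal library and a ratio of 1.33 (0.748 to 2.42). Slc13a1 led the Slc13 transcripts of the tumour, with 74.5% of the family's RPKM sum, against 43.8% in normal kidney. The antisense transcript Slc13a2os had 3 reads in the tumour and 6 reads in the normal library.

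Among calcium exchangers, 49.4% of the summed RPKM of Slc8 and Slc24 genes in the tumour, against 98.1% in normal kidney, came from Slc8a1 (chromosome 17, 81373105 to 81738387), the NCX1 protein that moves calcium out of distal tubule cells. It had 697 reads in the tumour and 13826 reads in the normal library and was 20.9-fold lower (19.4 to 22.6). Slc8a2, an exchanger of neurons, had 105 reads in the tumour and 7 reads in the normal library (14.2-fold higher (6.66 to 36.2)), and Slc8a3, of muscle and brain, had 14 reads in the tumour and 1 read in normal kidney. Of the potassium-dependent Slc24 exchangers, which serve photoreceptors, neurons and pigment cells, Slc24a3 alone was measured. It had 22 reads in the tumour and 42 reads in the normal library (2.02-fold lower (1.18 to 3.55)), and had a log2 ratio of -0.44 under plain CPM. The other 4 had between 1 and 8 reads in the tumour and between 0 and 1 reads in normal kidney.

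Of 4 vesicular carriers 3 were higher, against 31.0% of all measured genes, and the other had too few reads. Among all measured genes that average under 10 CPM, as these do, 42.7% were higher. Of the 22 such members 10 were higher (45.5%), near that share. Slc17a7 and Slc17a6, the vesicular glutamate carriers VGLUT1 and VGLUT2, had 32 and 28 reads in the tumour and 0 reads each in normal kidney. With a floor of 3 counts for the library at 0 their ratios were 10.1 and 8.84. The lower limits of their counting intervals were 7.75 and 6.73. Slc17a9, which loads vesicles with ATP, had 174 reads in the tumour and 9 reads in the normal library (18.3-fold higher (9.43 to 40.7)). Slc17a8, the VGLUT3 carrier, had 2 reads in the tumour and 6 reads in normal kidney. Levels were low: 1.26, 1.10 and 6.86 CPM in the tumour for Slc17a7, Slc17a6 and Slc17a9. A list of 12 neuronal marker genes moved the same way, with 11 of 11 measured genes higher and a summed level of 127 CPM in the tumour and 2.41 CPM in normal kidney, where Tubb3, Elavl4, Snap25 and Slc32a1 were at 0 reads. Its part in the values of Slc17a6, Slc17a7, Slc8a2, Slc9a5 and Slc12a5 was not tested.

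**Figure D4:**
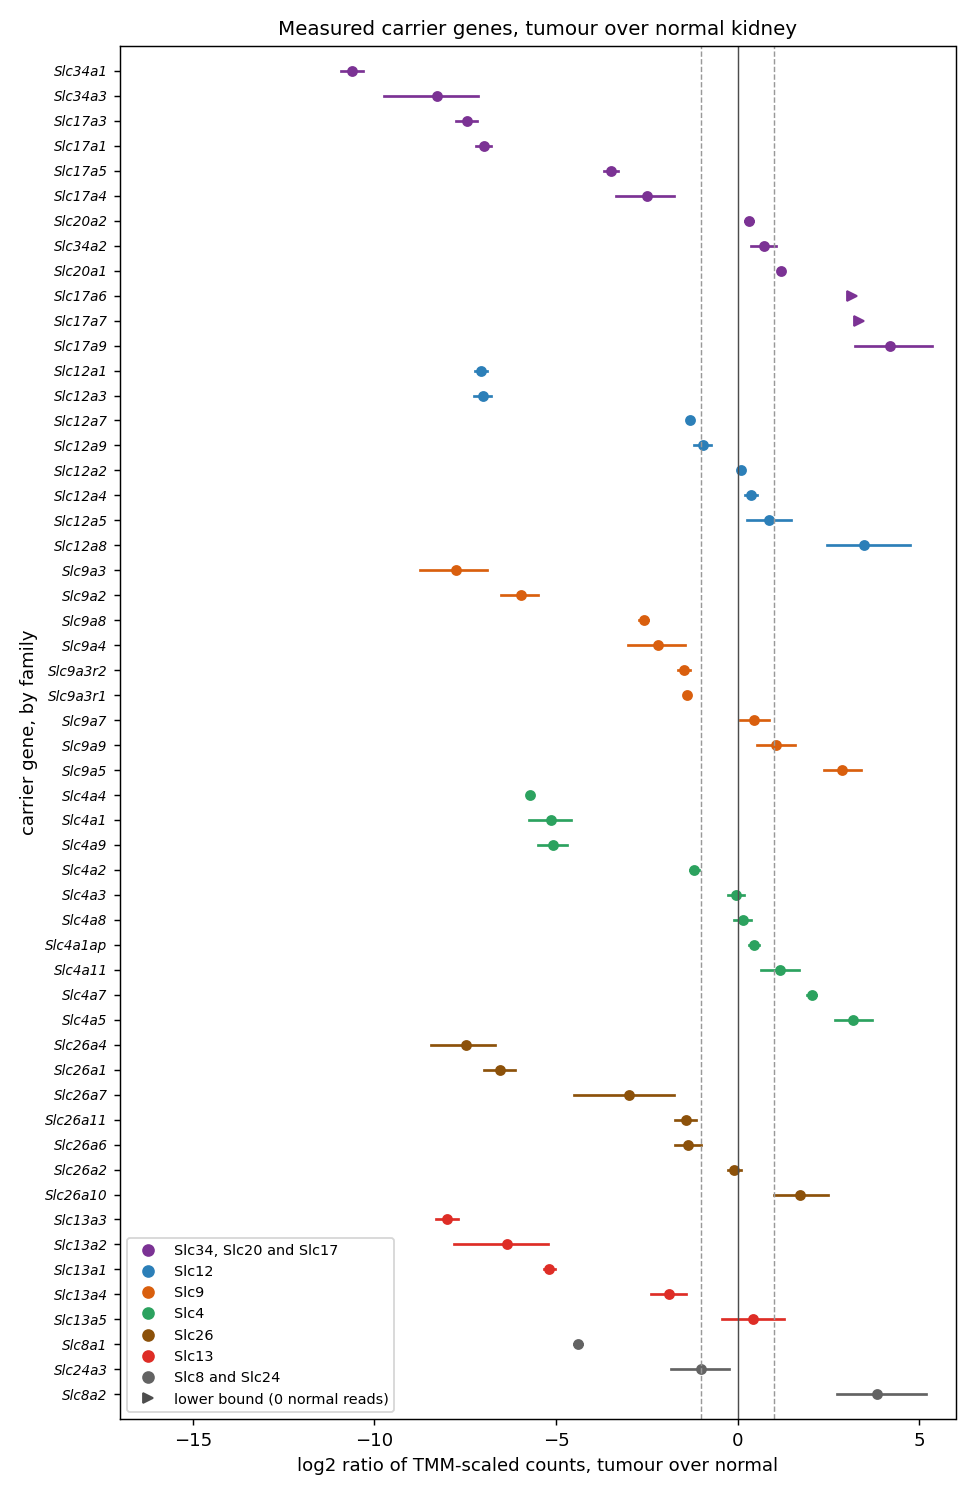
Points give log2 ratios (tumour over normal, TMM-scaled counts) for 54 measured genes by family, with lines for the 95% counting interval and dashed lines at 2-fold. Arrows, labelled as lower bounds, mark ratios taken with the floor of 3 counts for Slc17a6 and Slc17a7, which had 0 normal reads. The lower limits of their counting intervals lie below these points and are not drawn. Every family but Slc13 has a gene called on the right-hand side as well as on the left.

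Most partners and regulators of these carriers were lower. In a list of 46 genes, all measured, 40 were lower, against 28.1% of all measured genes, 1 was higher, against 31.0% of all, and 5 were neither. Their median log2 ratio was -4.69. The 3 largest differences were those of Kl, the FGF23 co-receptor through which phosphate recovery is restrained, with 46 reads in the tumour and 22032 reads in the normal library (506-fold lower (379 to 691)), the calcium-binding protein Calb1 with 45 reads in the tumour and 9055 reads in the normal library (212-fold lower (159 to 291)), and Bsnd, the barttin subunit of kidney chloride channels, with 9 reads in the tumour and 1625 reads in the normal library (191-fold lower (100.2 to 418)). Fgfr1, the receptor that Kl assists, was the higher gene, with 2138 reads in the tumour and 991 reads in the normal library (2.04-fold higher (1.89 to 2.21)). The genes called neither were Oxsr1, Stk39, Cul3, Cab39 and Wnk1, with log2 ratios of 0.80, 0.21, -0.23, -0.69 and -0.75. They belong to or control the WNK kinase cascade, which phosphorylates Slc12 cotransporters. So do Wnk4, which had 67 reads in the tumour and 1408 reads in the normal library (22.2-fold lower (17.4 to 28.8)), and Klhl3, the adaptor that leads WNK kinases to degradation, with 58 reads in the tumour and 798 reads in the normal library (14.5-fold lower (11.1 to 19.3)). Pdzk1, a scaffold of NaPi-IIa, had 502 reads in the tumour and 47897 reads in the normal library (101-fold lower (92.3 to 110.2)).

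Markers of the kidney moved with the carriers. Of 16 tubule and glomerulus markers 15 were lower in the tumour. The 16 summed to 952 CPM in the tumour and 24702 CPM in normal kidney. For this and the lists that follow, the shares over all measured genes were 28.1% lower and 31.0% higher. Umod, Calb1, Pvalb and Foxi1 are also in the list of partners, so the 2 lists share these lower genes. Pvalb was at 0 reads in the tumour, and Nphs1, a podocyte gene, was neither. All 8 pluripotency markers were higher, 1729 CPM in the tumour and 26.6 CPM in normal kidney in sum, 5 of them at 0 reads in normal kidney. Of 8 leukocyte markers 4 of 6 measured were higher (275 CPM in the tumour and 94.7 CPM in normal kidney in sum). Lyz2 alone made up 156 CPM of that sum in the tumour and 13.9 CPM in normal kidney. Ptprc and Csf1r were neither, with ratios of 1.18 and 0.526. Gut and lung epithelium markers were split, 2 lower and 2 higher of 4 measured, with 31.2 CPM in the tumour and 313 CPM in normal kidney in sum and Sftpb and Sftpc at 0 reads in both. Vil1 alone made up 8.08 CPM of that sum in the tumour and 305 CPM in normal kidney. Of trophoblast markers 2 were lower and 1 was higher of 3 measured, with 2.05 CPM in the tumour and 5.29 CPM in normal kidney in sum, and Prl3d1, Prl2c2, Tpbpa and Psg23 were at 0 reads in both. The part of any of these cell types in the carrier values was not tested.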

How the data were processed

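Total RNA of 1 kidney tumour and 1 normal kidney was profiled. Per the labels' protocols, ribosomal RNA was removed from 0.25 µg of RNA before a stranded library kit was used. STAR 2.5.0c, HOMER, bcl2fastq and the build mm10 are named in the submitters' processing notes. The strand setting of counting and the treatment of reads that map to several places are not given in the sources used here.

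The authors deposited whole-number counts of reads over exons of UCSC knownCanonical models, 20836819 in the tumour library (62.8% of its header total of 33169818) and 29258428 in the normal library (72.4% of 40408775). The deposited RPKM values equal count over model length and header total (largest difference 1.80e-06) and were used to compare genes within a library. Coordinates, counted from 1, are copied from that table. All 70 models overlap the GENCODE M21 gene of that symbol. In that annotation exons of 14 members, among them Slc34a1 (with Pfn3) and Slc26a1 (with Idua), overlap exons of a gene on the other strand and those of 2 members overlap a gene on the same strand, so their counts may include such reads.

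For each symbol the model with most reads was kept. Libraries were scaled with TMM over all symbols (edgeR 4.0.16, R 4.3.3), with factors of 1.22 for the tumour and 0.821 for the normal library. Intervals of ratios are exact conditional (Clopper-Pearson) 95% intervals. They cover counting error only, as does the floor of 3 counts used for a count of 0 (0.118 CPM in the tumour and 0.125 CPM in the normal library), and PCR copies are not told apart. The calls were tested on simulated counts that hold counting error only, with no gene simulated at the 2-fold threshold. That test cannot speak to differences between animals or libraries. Full values are given for members that average 10 CPM or more or are called higher, apart from some genes that are not reported here, and in the list of partners for the 3 largest ratios in each direction, with others named after their values were seen. The members and lists were chosen with earlier results of these data known. Alternatives used DESeq2 1.42.0 size factors, other totals, RPKM, filters and floors. Protein identity between members was not analysed here. Python 3.11.15 with scipy 1.17.1 was used, and promoter sequences are RefSeq's.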

Additional observations from a re-analysis of the deposited data

How the results depend on the processing

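With 1 library per group no library could be left out. No paired analysis was possible because each group has a single library. The depth limits the 13 members with under 20 reads, which that minimum leaves uncalled. Alternatives that use other totals shift the whole table: over all measured genes the median log2 ratio, 0.07, moved up by 0.57 with plain CPM, 0.36 with header totals, 0.33 with RPKM plus 0.1 and 0.17 with RPKM plus 1. The share of higher calls among all measured genes went with it, 52.4% with TMM and 67.6%, 62.5%, 62.6% and 59.2% in that order. With DESeq2 size factors, summed models or a floor of 1 the members' calls were the same 32 lower and 12 higher genes.

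Under the other settings the 12 higher members stayed within 1.5 times that count except with RPKM plus 1, where 5 remained. The lower members numbered 24 with plain CPM, 28 with header totals or RPKM plus 0.1, 22 with RPKM plus 1 and 23 at 4-fold, all of them among the 32. The members' median log2 ratio lay between -1.41 and -0.59 in all settings, and was -1.34 over only symbols that end after the number. No called member changed direction. Those short of 2-fold with header totals as well as plain CPM were Slc12a7, Slc4a2, Slc24a3 and Slc26a6.

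Small family counts moved by more than 1.5 times. In the Slc34, Slc20 and Slc17 group 2 genes in place of 4 were higher with RPKM plus 1 and with at least 100 reads. In Slc12, 2 in place of 1 were higher with plain CPM and header totals (Slc12a5 was added) and 0 with RPKM plus 1. In Slc9, 4 in place of 7 were lower with plain CPM and at 4-fold, and 1 in place of 2 was higher with RPKM plus 1 and at 4-fold. In Slc26, 3 in place of 5 were lower with plain CPM and at 4-fold and 2 with RPKM plus 1, while on the higher side 1 became 0 with RPKM plus 1, at least 100 reads and 4-fold, and 3 with no minimum of reads. In Slc8 and Slc24, 1 in place of 2 was lower with plain CPM, header totals, RPKM plus 0.1, RPKM plus 1, at least 100 reads and 4-fold, and on the higher side 1 became 0 with RPKM plus 1 and 3 with no minimum. In the list of partners the 1 higher gene became 2 with plain CPM, header totals, RPKM plus 0.1 and RPKM plus 1 (Oxsr1 was added) and 0 at 4-fold. The cause of these moves was not tested beyond the changed threshold, filter or total itself.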
